A study of Mus musculus with 12 samples.

Results

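Replicate 3 made up 4 of the 12 RNA sequencing libraries, 1 from each of the treatment groups control, KCC-07, scramble and siMBD2. The 4 libraries were taken by the batch given in their labels, with no measured value used, and were compared with the 8 libraries of replicates 1 and 2, with the treatment group as a covariate. The labels present the batches as biological replicates. In the library names the third batch is numbered 4 in the drug arm (control and KCC-07) and 3 in the siRNA arm (scramble and siMBD2). Whether the arms were cultured at the same time is therefore not known, and each arm was also given an effect of its own.

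All 12 libraries hold polyadenylated RNA of PYMT-R221A, a mouse mammary tumour cell line that expresses the polyoma middle T oncogene, so every group is the same single line. The study asks how KCC-07, a small molecule described as an inhibitor of the MBD2 pathway, and a knockdown of Mbd2 change these cells. Control cells were untreated as far as the labels say, KCC-07 cells received 40 µM of the compound, scramble cells a non-targeting siRNA and siMBD2 cells an siRNA against Mbd2, which encodes a reader of methylated DNA. Neither a vehicle, a transfection reagent nor a duration of treatment is given in the sources used here. Because each treatment group has 1 library of each batch, the comparison asks how far the third batch stood from the other batches within the same treatment.

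Several gene programmes serve as background. NF-kB factors are held in the cytoplasm by inhibitor proteins until cytokines or microbial products release them, and they then induce chemokines, adhesion molecules and their own inhibitors. Type I interferon signals from its receptor to a sequence element shared by many antiviral genes, and foreign nucleic acid is a known trigger of that pathway. The mitochondrial genome encodes subunits of the respiratory chain and is transcribed separately from the nucleus. Immediate early genes such as Fos and Egr1 respond to growth factor and stress signals without new protein synthesis.

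The promoters of 4 genes are shown. Cxcl1 and Cxcl2 stand for a programme that fell in replicate 3. Isg15 and Ifit3 stand for one that rose in replicate 3 of the siRNA arm. The sequences are the 250 bases before the transcription start in RefSeq's annotation of GRCm38.p6, printed 5′ to 3′ on the gene's strand, with capitals marking matches to the kappaB motif of NF-kB (Cxcl1, Cxcl2) or to the interferon-stimulated response element, GAAA followed by any 2 bases and GAAA (Isg15, Ifit3), both searched on both strands. The Cxcl1 window is chr5:90890995-90891244 on the plus strand, Cxcl2 is chr5:90903649-90903898 on the plus strand, Isg15 is chr4:156200819-156201068 on the minus strand and Ifit3 is chr19:34583279-34583528 on the plus strand.
Cxcl1: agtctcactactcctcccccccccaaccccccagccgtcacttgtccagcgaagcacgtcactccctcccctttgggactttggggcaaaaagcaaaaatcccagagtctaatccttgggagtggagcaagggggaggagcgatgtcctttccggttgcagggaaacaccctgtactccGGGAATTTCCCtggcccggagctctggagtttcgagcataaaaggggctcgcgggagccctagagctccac
Cxcl2: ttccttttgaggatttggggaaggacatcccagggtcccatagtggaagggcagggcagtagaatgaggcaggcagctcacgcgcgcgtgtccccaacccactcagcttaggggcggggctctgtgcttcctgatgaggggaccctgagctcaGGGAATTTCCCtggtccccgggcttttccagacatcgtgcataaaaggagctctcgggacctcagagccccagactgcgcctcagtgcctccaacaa
Isg15: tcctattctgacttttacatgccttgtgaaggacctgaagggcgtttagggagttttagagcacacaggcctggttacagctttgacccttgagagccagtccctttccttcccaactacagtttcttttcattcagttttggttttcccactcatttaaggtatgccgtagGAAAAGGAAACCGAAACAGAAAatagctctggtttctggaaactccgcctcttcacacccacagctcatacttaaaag
Ifit3: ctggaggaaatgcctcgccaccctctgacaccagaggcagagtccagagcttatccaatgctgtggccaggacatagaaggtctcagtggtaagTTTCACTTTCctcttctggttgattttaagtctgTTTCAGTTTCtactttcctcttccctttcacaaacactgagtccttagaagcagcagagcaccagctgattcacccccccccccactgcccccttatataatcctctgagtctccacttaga

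In Cxcl1 and Cxcl2 the capitals cover 2 overlapping matches, 1 on each strand, that end at positions −61 and −87 relative to the start. Isg15 held 3 overlapping matches from −78 to −57, and Ifit3 held 2 separate matches on the opposite strand. A kappaB match was present in 10 of the 19 windows found for the NF-kB list below (52.6%), against 3.75% of 27025 windows of the whole table. The response element was present in 10 of the 22 windows found for the interferon list (45.5%), against 3.04% of all windows. Both lists name known targets of their pathway, so high shares were likely in advance and say nothing about replicate 3. Among genes that passed the test, a kappaB match was held by 8.35% of the windows of genes lower in replicate 3 and 5.63% of those higher, and in the siRNA arm by 10.8% of those lower and 7.83% of those higher, against 4.34% of the 10398 windows of tested genes. The response element was held by 16.96% of the windows of genes that were higher in replicate 3 of the siRNA arm and 2.59% of those lower there, and over the 4 groups by 5.49% of those higher and 2.32% of those lower, against 2.61% of the windows of tested genes. A match describes letters in a window and is neither a binding site nor a cause of a change.

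Library totals ran from 25.8 to 34.0 M (1e+06) counts, and 14935 of 55335 genes had enough counts to be tested. Neither the total count (exact permutation within groups, two-sided p = 0.975) nor the number of genes with at least 10 counts (p = 0.704) set replicate 3 apart. The share of counts from mitochondrially encoded genes was higher in replicate 3 in every group: 1.45%, 1.47% and 2.81% in control replicates 1, 2 and 3, 1.82%, 1.55% and 3.90% with KCC-07, 2.21%, 2.32% and 3.01% with scramble, and 2.14%, 2.12% and 2.70% with siMBD2. Its exact permutation p of 0.0123 is the smallest that the 81 arrangements allow (0.037 after Benjamini-Hochberg adjustment over the 3 values). Those arrangements treat libraries of 1 batch as unrelated. When the replicate number was moved as a unit, a test added after the data were seen, the exact p was 0.333 with all groups together (3 arrangements) and 0.111 with the arms separate (9 arrangements), the smallest that these allow, so the call was lost. Mbd2 checked the siRNA labels: it was at 30.6 to 35.7 CPM (counts per 1e+06 counts, scaled between libraries) in siMBD2 libraries and 72.5 to 83.2 CPM in all others, and it did not differ detectably in replicate 3 (log2 change −0.06, adjusted p = 0.561 by edgeR's quasi-likelihood test).

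The label of an epithelial tumour line was checked against markers. The luminal keratins Krt8 and Krt18, the epithelial adhesion genes Epcam and Cdh1 and the basal keratin Krt14 were between 151 and 579 CPM in every library. The 15 basal and myoepithelial genes listed, 12 of them tested, summed to 1160 to 1627 CPM. Mesenchymal genes were present too: the 15 listed summed to 2252 to 3904 CPM, beside 1966 to 2401 CPM for the 22 luminal genes listed. Of the leukocyte genes, Ptprc had at most 3 counts in any library and Adgre1 had none, while Cd68 and Csf1r had enough counts to be tested. The leukocyte list of 14 genes, 4 of them tested, summed to 75.4 to 116 CPM in replicate 3 and 86.6 to 174 CPM in the other libraries, and 2 of the 4 fell, Csf1r (−1.27) and Cd14 (−0.30, lost without 7 of the 12 libraries in turn, with the highest adjusted p, 0.0793, without KCC-07 replicate 3, edgeR). The adipocyte genes Adipoq and Plin1 had no counts, and 1 of 2 tested adipocyte genes fell (Pparg, −3.31). The 10 adipocyte genes listed summed to 4.12 to 15.6 CPM. The summed level of the 10 endothelial genes listed, 3 of them tested, stayed between 3.61 and 13.2 CPM. The 10 fibroblast genes listed summed to 76.2 to 212 CPM, and 0 of the 5 tested passed edgeR's test over the 4 groups. In the drug arm 3 of the 4 leukocyte genes fell and 1 rose, and 1 fibroblast gene fell, counts of falls that were 1 to 3 and 0 to 3 without 1 library. Of all genes tested, 17.2% fell and 18.3% rose in the drug arm, and 5.60% fell and 6.41% rose over the 4 groups. In bulk RNA, fewer cells of one kind and less RNA per cell cannot be told apart, and the part of these genes in the results below was not tested.

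Replicate 3 stood apart from replicates 1 and 2 in every group. Within each group, 77.4% to 88.4% of the variance of log2(CPM + 1) lay between replicate 3 and the mean of the other replicates, where 50% is the value with no difference. The same share was 31.8% to 42.5% for replicate 1 and 28.7% to 39.9% for replicate 2. The first principal component of the deviations from the group means carried 50.8% of their variance, and it placed the control and KCC-07 replicate 3 libraries at 30.7 and 39.8, those of scramble and siMBD2 at 9.26 and 10.5, and the other 8 libraries between −20.7 and −3.94. The second component (16.6%) placed the drug arm's replicate 3 libraries at −14.2 and 1.63 and those of the siRNA arm at 16.5 and 20.1. Across genes, the replicate 3 deviations of control and KCC-07 had a Pearson correlation of 0.56 and those of scramble and siMBD2 one of 0.69, while the 4 pairs between arms ranged from 0.17 to 0.30. These correlations are across genes of libraries that share a cell line and a protocol, and genes are not independent replicates.

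**Figure D1:**
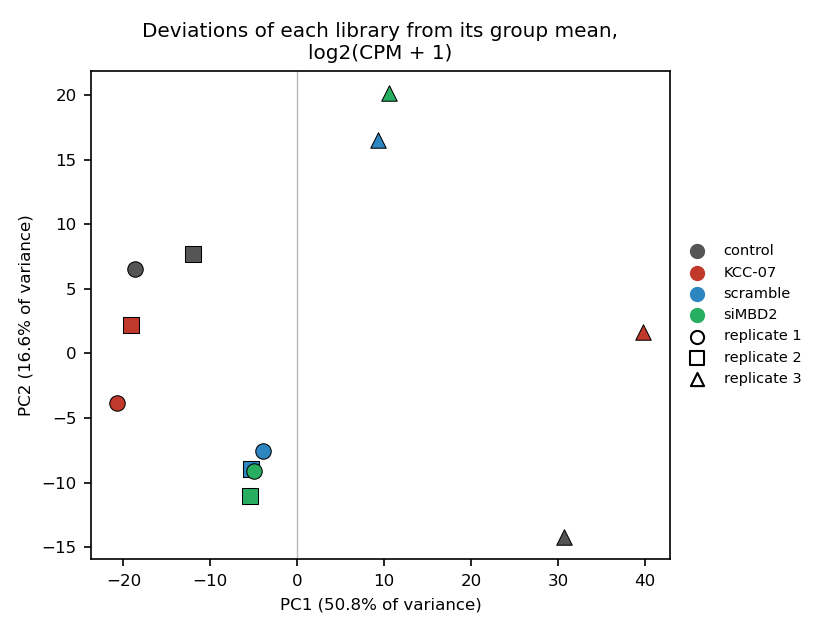
Principal components 1 and 2 of each library's deviation from its group mean, on log2(CPM + 1), with colour for the treatment group and symbol for the replicate. The 4 replicate 3 libraries lie at 9.26 or higher on component 1 and the other 8 lie below 0, and component 2 separates the replicate 3 libraries of the siRNA arm (16.5 and 20.1) from those of the drug arm (−14.2 and 1.63).

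Across the 4 groups, 1795 genes (12% of those tested) changed in replicate 3, 958 higher (6.41%) and 837 lower (5.60%), by edgeR's quasi-likelihood test at a Benjamini-Hochberg adjusted p under 0.05. At least a doubling or halving was reached by 298 of them, 127 higher and 171 lower. The p-values measure the spread between these cultures of 1 line, and they treat the 4 libraries of the batch as independent. The replicate 3 library lay above both others in all 4 groups for 1338 genes (8.96%) and below both for 1445 (9.68%). Within the drug arm's pair of groups it was above both for 25.1% of genes and below both for 26.3%, and within the siRNA arm's pair for 27.1% and 27.2%. Replicate 3 differed from replicate 1 at 607 genes (4.06%), 238 higher (1.59%) and 369 lower (2.47%), and from replicate 2 at 359 (2.40%), 132 higher (0.884%) and 227 lower (1.52%). Replicates 1 and 2 differed from each other at 0 genes by edgeR, with 106 of 14935 genes at an unadjusted p under 0.05. The median absolute log2 difference was 0.17 for replicate 3 against the others and 0.06 between replicates 1 and 2. The count of 1795 was 956 without KCC-07 replicate 3, 1048 and 1102 without KCC-07 replicates 1 and 2, 1179 without scramble replicate 2, and 1166 and 1192 without siMBD2 replicates 1 and 2. Without all KCC-07 libraries it was 660. In control and scramble libraries only it was 14, with 4 of the NF-kB list below and 0 of the interferon, mitochondrial, immediate early, unfolded protein, p53 and replication lists. The counts of 607 and 359 were 64 to 382 and 41 to 230 without 1 of 7 libraries of replicates 1 and 2. With the mitochondrially encoded genes left out, 1778 genes passed, 1768 of them among the 1795.

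By arm, 5305 genes (35.5%) passed in the drug arm, 2732 higher (18.3%) and 2573 lower (17.2%), and 601 (4.02%) in the siRNA arm, 295 higher (1.98%) and 306 lower (2.05%). These counts do not rank the arms. They rest on a spread pooled over both, and when each arm was fitted from its own 6 libraries the counts were 2194 in the drug arm and 4157 with siRNA. The siRNA arm's count was 85 without siMBD2 replicate 3, 149 without scramble replicate 3, 268 to 327 without any 1 of the arm's other 4 libraries, and 1695 and 1709 without the replicate 3 libraries of control and KCC-07. Across 14617 genes, the change in replicate 3 had a Spearman correlation of 0.30 with exon length in the drug arm and −0.10 with siRNA, and the part of length in the results was not tested. Both arms called 342 genes, which is 6.45% of the drug arm's calls and 56.9% of the siRNA arm's, and 270 of these had the same sign. Of the 72 with opposite signs, 33 were higher in the drug arm but lower in the siRNA arm and 39 the reverse. Tested directly, the effect of replicate 3 differed between the arms at 2358 genes (15.8%), 1258 with a higher value in the drug arm (8.42%) and 1100 with a lower one (7.37%). With the replicate number as a 3-level block, the pairing that the labels' batches give, that count was 1536. It was 488 without siMBD2 replicate 3, 648 without scramble replicate 3, 1339 to 1466 without any 1 of the siRNA arm's other 4 libraries, and 3868 and 3552 without the replicate 3 libraries of control and KCC-07.

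**Figure D2:**
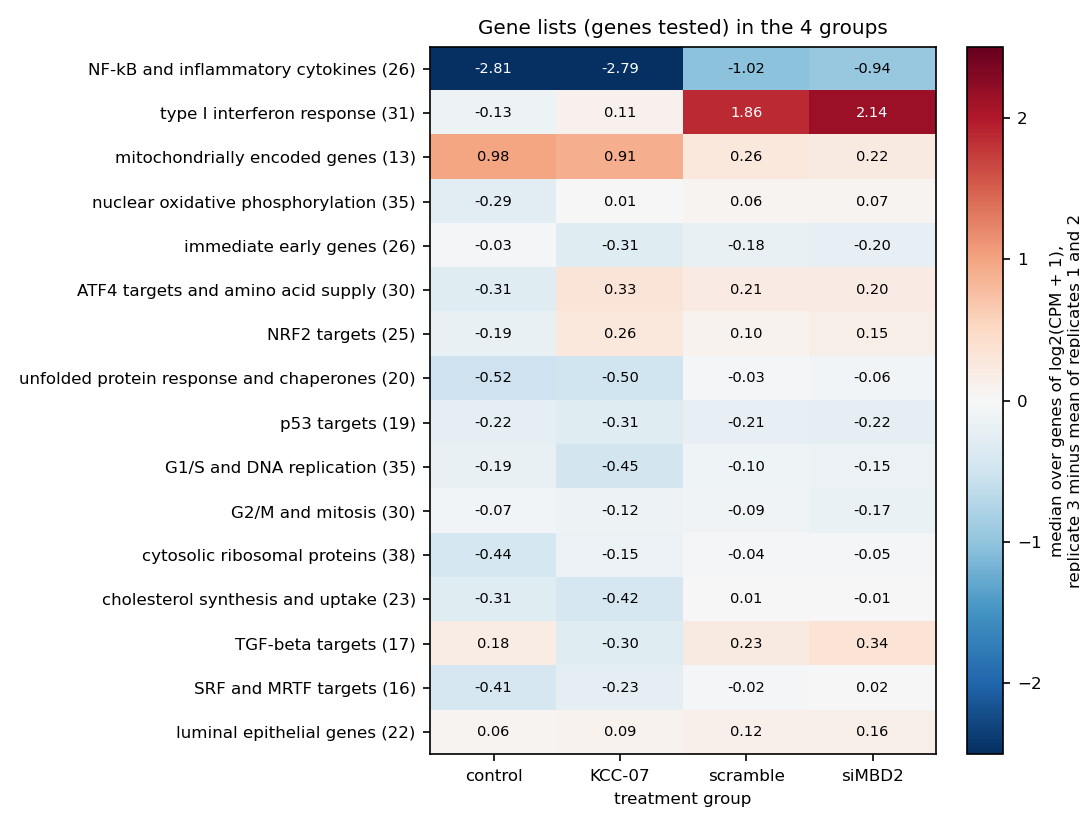
Median log2(CPM + 1) difference, replicate 3 minus the mean of replicates 1 and 2, over the genes of each list, in the 4 treatment groups, with the number of genes tested in brackets. The NF-kB list is negative in all 4 groups (−2.81, −2.79, −1.02 and −0.94), and the interferon list is near 0 in control and KCC-07 (−0.13 and 0.11) but at 1.86 and 2.14 in scramble and siMBD2.

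Genes induced by NF-kB and inflammatory cytokines were the group with the lowest median of the lists described here. Of 28 genes on the list 26 were tested, and 22 fell and 0 rose over the 4 groups, with a median log2 change of −2.21. The median over all genes tested lay between −0.01 and 0.00 here and in the comparisons by arm and between arms. In 19 of the 26 the replicate 3 library was the lowest of its group in all 4 groups. The summed level of the list was 5578, 5840 and 1178 CPM in control replicates 1, 2 and 3, 7828, 7051 and 1593 CPM under KCC-07, 3175, 3594 and 1785 CPM with scramble, and 2866, 3299 and 1624 CPM with siMBD2. Every replicate 3 value was below every value of the other 8 libraries, and the replicate 3 libraries of the 4 groups were closer to each other than the earlier libraries were. In the drug arm 22 members fell and 0 rose (median −3.21), and in the siRNA arm 15 fell and 2 rose (median −1.52). The siRNA arm's count of 15 was 8 without scramble replicate 3 and 7 without siMBD2 replicate 3, and the common count of 22 was 14 without the KCC-07 libraries. The difference between arms itself passed for 18 members, all lower in the drug arm (median difference −1.79).

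Among the secreted members, Cxcl1, a neutrophil-attracting chemokine (chr5:90891241-90893115, plus strand, protein-coding), was at 1420, 1373 and 212 CPM in the control libraries of replicates 1, 2 and 3. Its level was 1959, 1810 and 260 CPM under KCC-07, 549, 680 and 127 with scramble, and 483, 604 and 118 with siMBD2. All 4 replicate 3 libraries lay below all 8 others, which had differed by group, and Cxcl1 fell by 2.51 on the log2 scale (SE 0.13, adjusted p = 3.46e-06, edgeR). Its neighbour Cxcl2 (chr5:90903871-90905938, plus strand) went from 81.3 and 74.8 CPM to 1.28 in control, from 172 and 147 to 2.12 under KCC-07, from 15.9 and 18.6 to 1.28 with scramble and from 13.6 and 19.2 to 1.43 with siMBD2. No replicate 3 library overlapped the others, and the log2 change was −5.03 (SE 0.42, adjusted p = 0.000229). Both chemokines fell in each arm by itself, Cxcl1 by 2.79 and 2.24 and Cxcl2 by 6.09 and 3.62 on the log2 scale in the drug and siRNA arms. The difference between arms passed for Cxcl2 (−2.47, adjusted p = 0.000685), and for Cxcl1 (−0.55, adjusted p = 0.0326) it was lost without 7 of the 12 libraries in turn, with the highest adjusted p, 0.178, without siMBD2 replicate 3.

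Other secreted members followed the same order of libraries. Ccl2, a monocyte attractant, stood at 301, 247 and 14.4 CPM in control and 93.2, 118 and 29.9 CPM with scramble, and its log2 change was −3.12 (adjusted p = 0.00463). Ccl20, Ccl7 and Cxcl5 fell by 3.23, 3.14 and 2.51 on the log2 scale, and the call of Cxcl5 was lost without KCC-07 replicate 3 (adjusted p = 0.0728, edgeR). Tnf, the cytokine that itself activates NF-kB, was at 25.3 to 44.7 CPM in replicates 1 and 2 of the drug arm and 13.7 to 16.2 CPM in those of the siRNA arm. All 4 replicate 3 libraries of Tnf were between 2.91 and 3.41 CPM, a log2 change of −2.90 (SE 0.26, adjusted p = 0.000303).

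Adhesion and surface genes fell as well. Icam1, which binds leukocyte integrins (chr9:21015985-21028817, plus strand), was at 65.1, 56.6 and 0.087 CPM in control and 145, 87.0 and 1.04 CPM under KCC-07. In the siRNA arm it was at 4.24, 5.19 and 0.765 CPM with scramble and 4.54, 6.02 and 0.765 CPM with siMBD2. All replicate 3 values were the lowest, and the log2 change was −5.60 (SE 0.78, adjusted p = 0.00253). The siRNA arm's own change of Icam1 (−2.70, adjusted p = 0.00335) was lost without scramble replicate 3 (0.0621) and without siMBD2 replicate 3 (0.138). Vcam1, another adhesion molecule, had a log2 change of −4.19 and Cd69, a surface lectin best known from activated lymphocytes, one of −5.29, beside −5.58 for Saa3, which encodes a secreted acute phase protein. The control library of replicate 3 held 3 counts or fewer of Icam1, Saa3 and Cd69, so their levels there carry a wide counting error. Icam1 and Vcam1 each overlap an exon of a gene model on the opposite strand, and whether the counting used strand is not given in the sources used here, so their values are uncertain in that respect.

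The inhibitors that NF-kB induces fell with its other targets. Nfkbia, the inhibitor that retains NF-kB in the cytoplasm, was at 776, 561 and 78.5 CPM in control, 777, 725 and 78.4 under KCC-07, 449, 503 and 184 with scramble and 427, 467 and 168 with siMBD2. Its replicate 3 libraries were the lowest everywhere, and lower in the drug arm than in the siRNA arm (log2 changes of −3.17 and −1.39, difference −1.78, SE 0.16, adjusted p = 0.000143, edgeR). Tnfaip3, a ubiquitin-editing enzyme that limits NF-kB signalling (chr10:19000910-19015657, minus strand), changed by −2.61 (adjusted p = 0.00257), by −3.75 in the drug arm and −1.71 with siRNA. The factor genes Nfkb2 and Relb fell by 0.98 and 1.45 on the log2 scale, less than their targets named here.

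Of the 4 tested members that did not pass over all groups, Cxcl10 and Ccl5 moved differently in the arms. Cxcl10, which responds to interferon as well as to NF-kB, was at 8.84, 8.59 and 0.406 CPM in control and 31.6, 22.2 and 2.53 CPM under KCC-07, but at 6.60, 7.17 and 15.1 CPM with scramble and 10.4, 11.8 and 27.1 CPM with siMBD2. It fell in the drug arm by 3.72 on the log2 scale and rose in the siRNA arm (1.22, lost without siMBD2 replicate 3, adjusted p = 0.133). The difference was −4.94 (SE 0.29, adjusted p = 1.7e-05, edgeR). Ccl5 rose in the siRNA arm (log2 change 1.97), a call lost without either of that arm's replicate 3 libraries (adjusted p = 0.12 and 0.161), and did not pass in the drug arm (−0.55). Lif (0.15) and Csf1 (−1.05, adjusted p = 0.052) were the remaining 2.

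**Figure D3:**
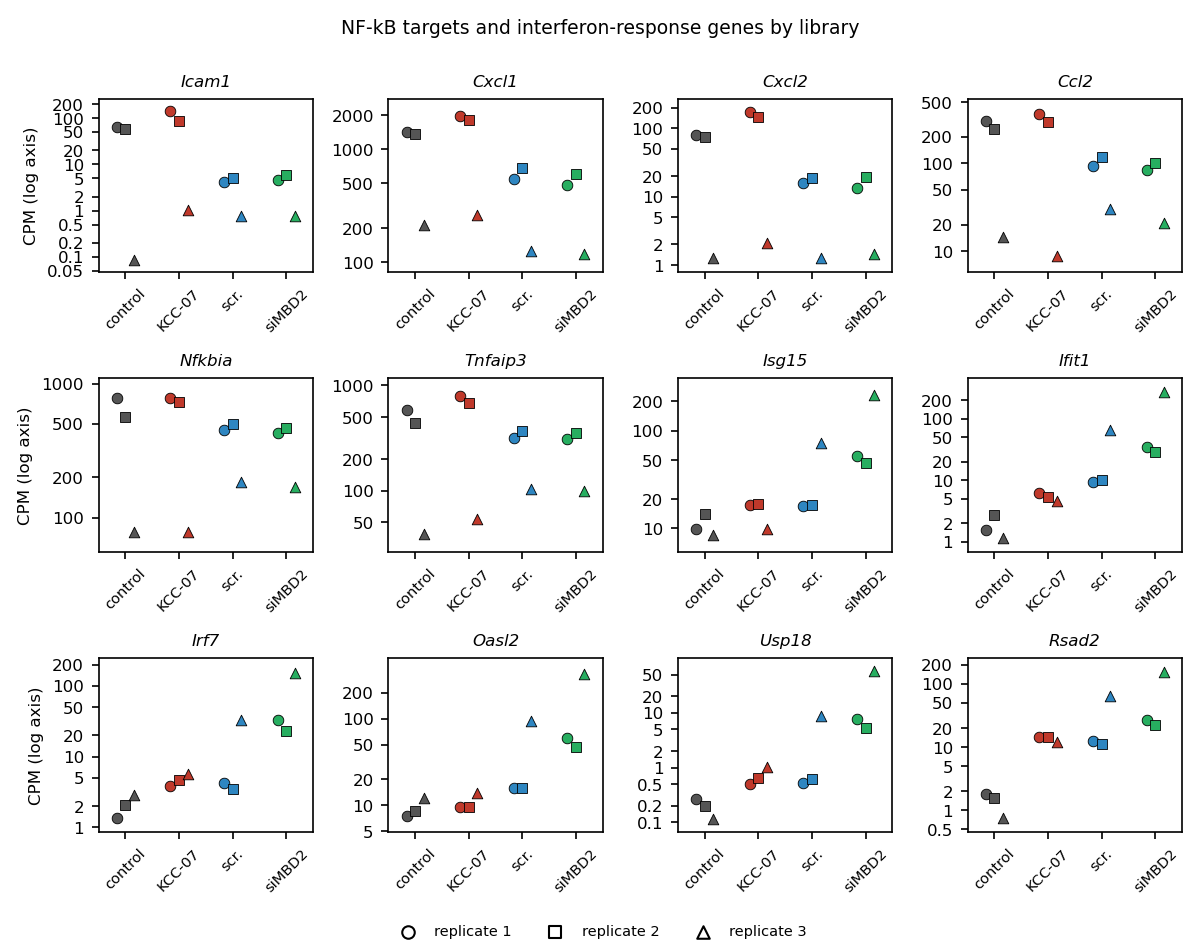
CPM per library on a log axis for 6 NF-kB targets and 6 interferon-response genes, with colour for the treatment group and a triangle for replicate 3. The triangles of Icam1, Cxcl1, Cxcl2, Ccl2, Nfkbia and Tnfaip3 are the lowest of their group in all 4 groups, while those of the interferon-response genes are far above the other symbols in scramble and siMBD2.

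Interferon-response genes were higher in replicate 3 of the siRNA arm. In that arm 30 of 31 genes on the list rose and 0 fell, with a median log2 change of 2.14, and Stat2 (0.71, adjusted p = 0.16) was the exception. Leaving out any 1 library left at least 26 called. In the drug arm 3 rose and 4 fell (median 0.09), beside 18.3% and 17.2% of all genes tested. The difference between arms passed for 29 of the 31, all lower in the drug arm (median −2.04). The summed level of the list was 368, 383 and 336 CPM in control and 540, 512 and 555 CPM under KCC-07, but 476, 466 and 1265 CPM with scramble and 1042, 894 and 3606 CPM with siMBD2. Replicate 3 was thus the highest library in scramble and in siMBD2, and the siMBD2 libraries were also the highest of their replicate number. Over the 4 groups 20 members rose (median 1.27), a count that was 12 or lower without any 1 of the siRNA arm's libraries, 10 without scramble replicate 3, 7 without siMBD2 replicate 3 and 3 without the siMBD2 group.

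Regulators of the pathway rose in the siRNA arm beside its effectors. Irf7, a transcription factor that amplifies interferon production (chr7:141262706-141266481, minus strand), was at 4.21, 3.49 and 33.4 CPM with scramble, 33.4, 23.0 and 155 CPM with siMBD2, 1.38, 2.10 and 2.90 CPM in control and 3.79, 4.69 and 5.76 CPM under KCC-07. Here replicate 3 was the highest library of all 4 groups, with a log2 change of 2.75 in the siRNA arm (SE 0.18, adjusted p = 1.12e-05, edgeR) and 0.57 in the drug arm (adjusted p = 0.084). Usp18, which removes ISG15 from proteins and dampens the receptor, rose by a log2 change of 3.42 in the siRNA arm and did not pass in the drug arm (0.38). Irf7 overlaps an exon of Phrf1, and Usp18 one of a gene model, on the opposite strand.

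Among the effectors, Isg15, a ubiquitin-like modifier whose promoter is printed above, was at 17.1, 17.3 and 74.1 CPM with scramble and 55.2, 46.9 and 231 CPM with siMBD2. In the drug arm it was at 9.87, 14.0 and 8.55 CPM in control and 17.2, 17.9 and 9.96 CPM under KCC-07. Replicate 3 was thus the highest library in both siRNA groups and the lowest in both drug groups. Isg15 rose in the siRNA arm (log2 change 2.14, SE 0.12, adjusted p = 2.45e-06) and fell by 0.64 in the drug arm (adjusted p = 0.00545, but 0.0814 without KCC-07 replicate 3), with a difference of −2.79 between them by edgeR's test.

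Ifit1, which binds foreign RNA (chr19:34640871-34650009, plus strand), went from 9.49 and 9.94 CPM to 67.0 with scramble and from 35.2 and 29.0 CPM to 276 with siMBD2, a log2 change of 2.96 (SE 0.15, adjusted p = 1.67e-06). In the drug arm it was at 1.52, 2.73 and 1.13 CPM in control and 6.31, 5.43 and 4.61 CPM under KCC-07, and its change did not pass (−0.54, adjusted p = 0.079). Rsad2, the antiviral enzyme viperin, rose in the siRNA arm (log2 change 2.56). Oasl2, an oligoadenylate synthetase-like gene (chr5:114896936-114912234, plus strand), rose in both arms, by a log2 change of 2.60 in the siRNA arm and 0.56 in the drug arm. Ifit3b and Ifit3 had log2 changes of 3.84 and 3.52 in the siRNA arm; Ifit3 and Ifit3b are near-identical copies and their split is uncertain.

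**Figure D4:**
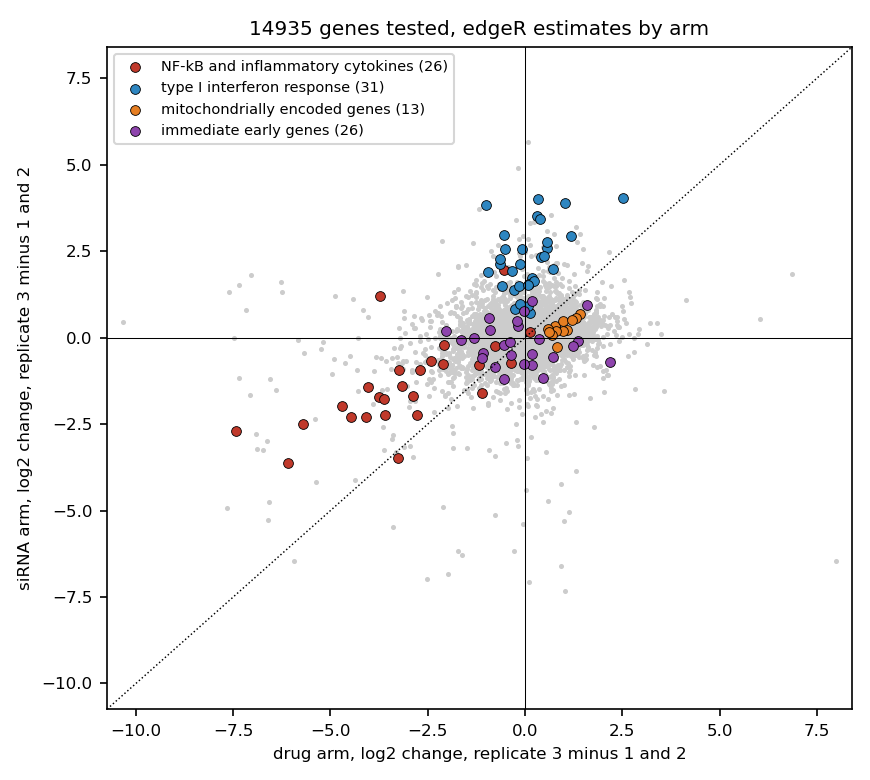
Log2 change of replicate 3 in the siRNA arm against that in the drug arm for the 14935 genes tested (grey), with 4 lists in colour and the line of equal change dotted. NF-kB genes lie mostly in the lower left quadrant, interferon-response genes lie above 0 on the siRNA axis and around 0 on the drug axis, and the arms' changes have a Pearson correlation of 0.24 across genes.

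Messenger RNAs of the mitochondrial genome were higher in replicate 3. Of the 13, 11 rose and 0 fell over the 4 groups (median log2 change 0.56), 13 rose in the drug arm (median 0.82) and 3 in the siRNA arm (median 0.25). The common count was 7 without KCC-07 replicate 3 and 6 without the KCC-07 group. The siRNA arm's count was 0 without scramble or siMBD2 replicate 3, 1 without any 1 of that arm's other 4 libraries and 6 without the replicate 3 library of control or KCC-07. Complex IV subunit gene mt-Co1 (chrM:5328-6872, plus strand) was at 4746, 5166 and 9639 CPM in control, 6179, 5080 and 17461 CPM under KCC-07, 7502, 7895 and 11428 CPM with scramble and 7126, 7109 and 10483 CPM with siMBD2. Replicate 3 was the highest library of each group, by a log2 change of 0.95 (SE 0.14, adjusted p = 0.00344, edgeR). For mt-Co2, another complex IV subunit, the change was 0.87 (adjusted p = 0.00223), and all 4 replicate 3 libraries (1280 to 1900 CPM) were above the other 8 (613 to 989 CPM). The 2 that did not pass were mt-Co3 (0.39, adjusted p = 0.0713) and mt-Nd3 (0.31). In the siRNA arm mt-Co1 was called (0.56, adjusted p = 0.0324) but was lost without any 1 of its 6 libraries, with an adjusted p of 0.434 without siMBD2 replicate 3.

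The difference between arms passed for 10 of the 13, a count that was 5 with the replicate block and 3 without siMBD2 replicate 3. Of 35 nuclear genes of oxidative phosphorylation, 0 passed in either direction by edgeR's test (median log2 change −0.05), and the median was below that of the mitochondrial genome's genes. Several of the 13, among them mt-Co1 and mt-Co2, have near-identical nuclear copies, and how reads with several matches were assigned is not given in the sources used here. Malat1, a noncoding RNA retained in the nucleus, was also higher in replicate 3 of the drug arm, at 67.6, 50.8 and 253 CPM in control and 111, 101 and 388 CPM under KCC-07, beside 114, 113 and 149 CPM with scramble and 102, 114 and 149 CPM with siMBD2. Its log2 change was 1.98 in the drug arm, while with siRNA a change of 0.43 (adjusted p = 0.048) was lost without 8 of the 12 libraries in turn, with the highest adjusted p, 0.571, without siMBD2 replicate 3. Malat1 overlaps a gene model on the opposite strand. Of the 8 nuclear and long noncoding RNAs tested, 2 rose and 2 fell in the drug arm, beside 18.3% and 17.2% of all genes. Over the 4 groups 2 rose and 2 fell as well, beside 6.41% and 5.60%.

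Immediate early genes moved in both directions. Of 26 tested, 2 rose and 5 fell over the 4 groups, beside 6.41% and 5.60% of all genes, and 4 rose and 9 fell in the drug arm, beside 18.3% and 17.2%. In the siRNA arm 3 rose and 7 fell, beside 1.98% and 2.05%. The common count of 5 lower was 8 without control replicate 3, 11 with no filter on low counts and 12 with the effects of replicate 3 per group averaged. The common count of 2 higher was 1 to 4 without 1 library. The siRNA arm's 7 was 2 without scramble or siMBD2 replicate 3 and 4 without replicate 2 of either group. It was 11 without the replicate 3 library of control or KCC-07 and 14 from the arm's own 6 libraries. The arm's 3 higher was 1 without siMBD2 replicate 3 and 5 without the replicate 3 library of control or KCC-07. Fos, a subunit of the AP-1 factor (chr12:85473890-85477273, plus strand), was at 29.3, 29.7 and 114 CPM in control and 36.6, 42.6 and 205 CPM under KCC-07, but at 16.7, 18.2 and 11.99 CPM with scramble and 15.8, 17.4 and 9.15 CPM with siMBD2. Its replicate 3 libraries were thus the highest of their groups in the drug arm but the lowest in the siRNA arm. Fos rose in the drug arm (log2 change 2.17, SE 0.11, adjusted p = 6.41e-07), fell in the siRNA arm by 0.70 (adjusted p = 0.0109, but 0.0553 without scramble replicate 3 and 0.369 without siMBD2 replicate 3) and differed between them by 2.87 (SE 0.17, adjusted p = 1.7e-05, edgeR). Egr1, a zinc finger factor, rose in the drug arm (log2 change 1.35) and did not pass in the siRNA arm (−0.09), with a difference of 1.444 (adjusted p = 0.000102). Fosb, another AP-1 subunit, rose over all 4 groups (1.30, SE 0.13, adjusted p = 0.000582).

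Spry4, an inhibitor of growth factor signalling that its own pathway induces, was at 3.54, 4.76 and 18.6 CPM in control, 11.5, 14.3 and 76.7 CPM under KCC-07, 8.95, 9.43 and 11.99 CPM with scramble and 11.2, 10.02 and 12.5 CPM with siMBD2. Replicate 3 was the highest of each group, and the log2 change was 2.38 in the drug arm (SE 0.14, adjusted p = 1.45e-06) and 0.31 in the siRNA arm (adjusted p = 0.284). The 5 immediate early genes that fell over the 4 groups included Zfp36, whose product destabilises cytokine messenger RNAs, by 0.85 and Egr2, a zinc finger factor related to Egr1, by 0.81 on the log2 scale. Zfp36 overlaps a gene model on the opposite strand.

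Chaperones and sensors of the endoplasmic reticulum were lower in replicate 3 of the drug arm. Of 20 genes of the unfolded protein response, 0 rose and 6 fell over the 4 groups (median −0.24), 16 fell in the drug arm (median −0.46) and 2 in the siRNA arm (median −0.06). The common count was 2 without KCC-07 replicate 3 and 11 without scramble replicate 3. It was 12 by DESeq2, 13 with no filter on low counts and 17 with the effects of replicate 3 per group averaged. The difference between arms passed for 15, all lower in the drug arm, a count that was 7 without either scramble or siMBD2 replicate 3 and 9 without scramble replicate 1. Hspa5, the main chaperone of the compartment (chr2:34771970-34777547, plus strand), fell by 0.87 in the drug arm and 0.32 with siRNA on the log2 scale, and the latter call was lost without scramble replicate 3 (adjusted p = 0.351, edgeR) and without each of the arm's other 5 libraries. Herpud1, which takes part in the degradation of misfolded proteins there, was at 219, 233 and 13.6 CPM in control, 220, 205 and 39.7 under KCC-07, 53.6, 63.1 and 39.3 with scramble and 68.9, 79.6 and 43.9 with siMBD2. Its replicate 3 library was the lowest of each group, and its effect differed between arms (−2.48, SE 0.38, adjusted p = 0.00249).

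Targets of p53 included a member with about the same change in both arms. Of 19 tested, 7 fell and 0 rose over the 4 groups (median −0.24), and 8 were lowest in replicate 3 in all 4 groups. Of all genes tested, 5.60% fell and 6.41% rose over the 4 groups. In the drug arm 11 targets fell and 2 rose, beside 17.2% and 18.3% of all genes. In the siRNA arm 6 fell and 0 rose, beside 2.05% and 1.98%. The common count of 7 stayed at 6 to 8 without 1 library and was 11 with group effects averaged. For siRNA the 6 was 1 without scramble or siMBD2 replicate 3 and 3 without any 1 of that arm's other 4 libraries. From each arm's own 6 libraries, the siRNA arm's 6 was 13 and the drug arm's 11 was 6. Cdkn1a, the p21 inhibitor of cyclin-dependent kinases (chr17:29090976-29100727, plus strand), was at 46.1, 55.8 and 27.3 CPM in control, 91.4, 88.5 and 55.2 CPM under KCC-07, 40.7, 41.2 and 23.1 CPM with scramble and 43.5, 45.6 and 29.7 CPM with siMBD2. Replicate 3 was the lowest of each group although KCC-07 replicate 3 overlapped the control range, and the log2 change was −0.75 (SE 0.07, adjusted p = 0.000349, edgeR). The arms' changes were −0.80 and −0.70, with a difference of −0.10 that did not pass (adjusted p = 0.644). Fas, the death receptor, fell by 2.58 in the drug arm and 0.72 with siRNA on the log2 scale, the latter lost without siMBD2 replicate 3 (adjusted p = 0.0876), and the difference passed (−1.86). Cdkn1a overlaps a gene model on the opposite strand.

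Genes of DNA replication, translation and cholesterol synthesis had median log2 changes between −0.37 and 0.02, over the 4 groups and by arm. Some single genes, such as Insig1 below, changed more. Of 35 genes of the G1/S transition and DNA replication, 12 fell and 0 rose over the 4 groups (median −0.22), and 24 fell in the drug arm (median −0.34). The common count was 2 without KCC-07 replicate 3, 3 to 7 without each of the 8 libraries of replicates 1 and 2 and 4 with the replicate block. It was 20 by DESeq2 and 25 with group effects averaged. The drug arm's count was 13 from its own 6 libraries. Of all genes tested, 5.60% fell over the 4 groups and 17.2% in the drug arm. Mcm10, a replication initiation factor, fell by 0.40 on the log2 scale (SE 0.08, adjusted p = 0.00979, edgeR). None of 38 cytosolic ribosomal protein genes passed over the 4 groups (0 by edgeR, median −0.17), although 0 of them had a log2 change above 0. Under the alternatives the number that fell ran from 0 to 34. In the drug arm 31 fell (median −0.30), a count that was 3 in that arm's own 6 libraries and 9 without control replicate 3.

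Of 23 genes of cholesterol synthesis and uptake, 16 fell and 1 rose in the drug arm (median −0.37) and 0 passed in the siRNA arm (median 0.02). In the drug arm 17.2% of all genes tested fell and 18.3% rose. The difference between arms passed for 15 of the 23, all lower in the drug arm, but for 5 without scramble replicate 3 and 6 without siMBD2 replicate 3. Insig1, which retains the sterol sensor in the endoplasmic reticulum, was at 939, 799 and 322 CPM in control and 985, 995 and 270 CPM under KCC-07, beside 440, 493 and 486 CPM with scramble and 496, 516 and 445 CPM with siMBD2. Replicate 3 lay far below the earlier libraries in the drug arm, within their range with scramble and slightly below it with siMBD2. The difference between arms was −1.59 (SE 0.16, adjusted p = 0.000185, edgeR).

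Some genes were called in the same direction in each arm. Hap1, huntingtin-associated protein 1 (chr11:100347327-100356128, minus strand), was at 4.07, 5.30 and 10.6 CPM in control, 11.4, 10.8 and 28.1 CPM under KCC-07, 7.92, 8.36 and 15.3 CPM with scramble and 8.81, 9.01 and 27.9 CPM with siMBD2. Each replicate 3 library was the highest of its group, and the log2 changes of 1.26 in the drug arm and 1.30 with siRNA (lost without siMBD2 replicate 3, adjusted p = 0.0629) gave a common change of 1.28 (SE 0.11, adjusted p = 0.000259, edgeR). Asap3, which acts on ARF GTPases, changed by 1.27 in the drug arm and 1.26 with siRNA (the latter lost without siMBD2 replicate 3, adjusted p = 0.118). Postn, the matrix protein periostin (chr3:54361109-54391037, plus strand), was at 29.4, 35.0 and 80.1 CPM in control and 36.3, 39.2 and 77.6 CPM with scramble, and at 38.3, 39.1 and 70.9 CPM with siMBD2. KCC-07 cells held far less of it, 4.54, 4.32 and 8.51 CPM, and replicate 3 was again the highest. The common log2 change of Postn was 1.05 (SE 0.08, adjusted p = 0.000143), with 1.17 in the drug arm and 0.96 with siRNA. Txnip, a thioredoxin-binding protein, fell by 3.14 on the log2 scale (−3.40 in the drug arm and −2.82 with siRNA). With siRNA the call of Txnip was lost without scramble replicate 3 or siMBD2 replicate 3 (highest adjusted p 0.127), and Txnip overlaps a gene model on the opposite strand. For Hap1, Asap3, Postn and Txnip the difference between the arms did not pass, which does not show that the arms changed alike.

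Whether the third batch changed the treatments' own effects was tested next. The KCC-07 effect differed between replicate 3 and the earlier replicates at 1898 genes (12.7%), 849 higher in replicate 3 (5.68%) and 1049 lower (7.02%), but at 126 when only the drug arm's 6 libraries entered the fit. The count was 3321 and 4087 without control replicates 1 and 2, 1051 without KCC-07 replicate 1, and 983 to 1022 without any 1 of the siRNA arm's replicates 1 and 2. The siMBD2 effect differed at 0 genes by edgeR, at 2 by DESeq2 and at 330 by an unadjusted p under 0.05, and at 60 in the siRNA arm's own 6 libraries. Leaving out control replicate 1 or 2 gave 4. Both tests rest on 1 replicate 3 library per group, and the spread comes from the differences between replicates 1 and 2.

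Genes that ATF4 induces when amino acids run short were tested for this difference. Of 30, 20 had a higher KCC-07 effect in replicate 3 and 0 a lower one (median 1.07, against 0.00 over all genes), and 10 did so in the drug arm's own libraries. Chac1, which degrades glutathione (chr2:119351229-119354381, plus strand), was at 39.4, 51.6 and 3.88 CPM in control and 55.7, 57.8 and 54.9 CPM under KCC-07. The control library of replicate 3 was low while the treated one stayed at the level of the earlier batches, and the KCC-07 effect was higher by 3.50 on the log2 scale (SE 0.23, adjusted p = 0.000345, edgeR). Asns, asparagine synthetase, was at 146, 151 and 85.7 CPM in control and 172, 163 and 326 CPM under KCC-07, so that here the replicate 3 libraries moved apart in both directions (1.75, SE 0.11). Atf4 itself followed the pattern of Chac1, with 377, 374 and 203 CPM in control and 397, 387 and 386 CPM under KCC-07 (0.86, adjusted p = 0.00224, but 0.0551 in the drug arm alone).

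Other programmes took part in the same difference. Of all genes tested, 5.68% had a higher KCC-07 effect in replicate 3 and 7.02% a lower one. Among NRF2 targets, 12 of 25 had a higher KCC-07 effect in replicate 3 and 0 a lower one (median 0.62), a count that was 3 in the drug arm alone. Hmox1, the haem-degrading enzyme, was at 26.1, 25.9 and 24.9 CPM in control and 43.2, 54.0 and 91.7 CPM under KCC-07 (0.98, adjusted p = 0.0119, but 0.0835 in the drug arm alone). Of 17 targets of TGF-beta, 8 had a lower effect (4 in the drug arm alone) and 2 a higher one, among the former Smad7, the pathway's inhibitor, at 80.7, 72.8 and 108 CPM in control and 166, 151 and 104 CPM under KCC-07 (−1.10, SE 0.14, adjusted p = 0.00317, edgeR). For Smad7 the KCC-07 libraries were above the controls in replicates 1 and 2 and at about the control level in replicate 3.

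Markers of other cell types moved in this comparison too, and their part in it was not tested. Of 5 fibroblast genes tested 3 had a lower KCC-07 effect in replicate 3 and 0 a higher one (median −0.89; 2 in the drug arm alone), of 3 endothelial genes 2 a lower one (1 in the drug arm alone, and 1 without KCC-07 replicate 1 or any 1 of the siRNA arm's replicates 1 and 2), and of 4 leukocyte genes 1 a higher one. Of all genes tested, 7.02% had a lower KCC-07 effect in replicate 3 and 5.68% a higher one. The summed fibroblast level was 192, 209 and 212 CPM in control and 149, 145 and 76.2 CPM under KCC-07. The fibroblast genes Dcn and Lum stayed under 0.2 CPM, and Thy1 and the endothelial gene Cdh5 had no counts in any library. Other fibroblast markers, Pdgfra and Pdgfrb, had enough counts to be tested.

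Single genes with large differences in the KCC-07 effect included Tslp and Erg. Tslp, an epithelial cytokine, was at 3.48, 4.93 and 0.812 CPM in control and 21.5, 24.2 and 54.4 CPM under KCC-07, a difference of 3.61 (SE 0.35, adjusted p = 0.00142, edgeR). Erg, an ETS-family transcription factor that also stands on the endothelial list (chr16:95359169-95586593, minus strand), was at 3.66, 5.60 and 9.13 CPM in control and 2.15, 1.84 and 0.112 CPM (3 counts) with KCC-07, a difference of −5.10 (SE 0.63, adjusted p = 0.00266). KCC-07 libraries were thus above control for Tslp and below it for Erg in every batch, and the gap was widest in replicate 3.

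**Figure D5:**
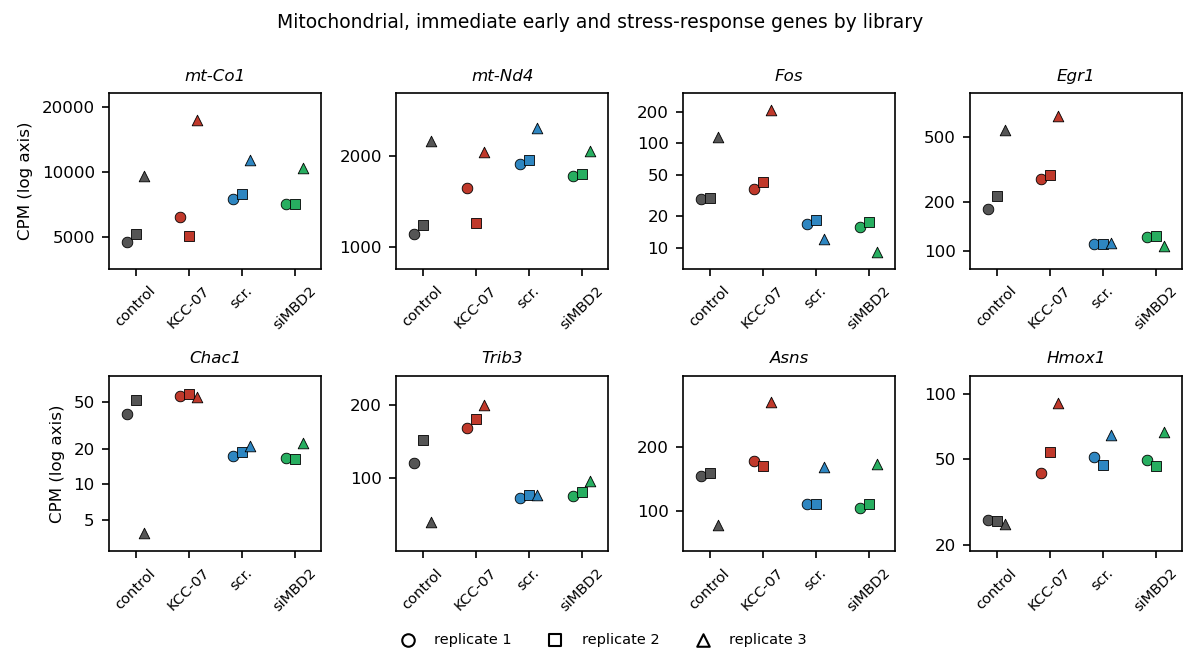
CPM per library on a log axis for 2 mitochondrially encoded genes, 2 immediate early genes, 3 genes of the amino acid response and Hmox1, with colour for the treatment group and a triangle for replicate 3. The triangles of Fos and Egr1 are the highest of their group in control and KCC-07, and the control triangle of Chac1 (3.88 CPM) lies far below all other Chac1 symbols.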

How the data were processed

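The 12 libraries are of polyadenylated RNA from PYMT-R221A cells, read on a NovaSeq X instrument per the labels' protocols. The authors deposited 1 table of raw counts per gene for all libraries. DRAGEN, DESeq2 1.44.0 and the builds mm10 and GRCm38.p6 are named in the submitters' processing notes without a role, and the counting rule, strand and treatment of multiply matching reads are not given in the sources used here. Gene positions come from GENCODE M21, which held 54587 of the 55335 identifiers.

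Counts were tested with edgeR 4.0.16 (quasi-likelihood, TMM scaling, filterByExpr with a minimum count of 10 and a minimum total of 15) in R 4.3.3, fitted over all 12 libraries with the group and replicate 3 as terms, replicate 3 by arm, or replicate 3 by group, and p-values were Benjamini-Hochberg adjusted over the 14935 genes tested. Levels are CPM scaled by TMM, SE is that of the log2 change, and deviations used log2(CPM + 1). The scripts were tested on simulated data. DESeq2 1.42.0, other scaling and filters, other sets of libraries and a replicate block were alternatives. Near-identical copies were sought with blastn 2.17.0 (95% identity over 50% of a transcript) and found for 20 of 208 named genes. Promoters came from a RefSeq table that held 19 of 28 NF-kB and 22 of 31 interferon genes.

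Members were fixed by the labels. They and the 41 gene lists were chosen with earlier results of these data known. Genes were named by rule: adjusted p under 0.05, mean of at least 2 CPM, replicate 3 outside the range of the others in every group compared and no predicted gene model, then the 15 largest changes in each direction, 6 by arm, 5 for each difference without the condition on range, up to 4 per list with the smallest p, all mitochondrially encoded messenger RNAs and Mbd2. Isg15, Rsad2, Ccl5, Lif, Csf1, Stat2, Nfkbia, Nfkb2, Relb, Egr1, Herpud1, Fas, Insig1, Asns, Atf4, Slc7a11, Fth1, Trib3, Id3, Smad7 and the levels of cell type markers were chosen after their values were seen. Pairing follows the batch in the labels. Deviations of same-numbered libraries within an arm correlated at 0.33 to 0.69, but for replicates 1 and 2 unlike numbers did so as well (0.26 to 0.42).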

Additional observations from a re-analysis of the deposited data

Results flagged for a closer look

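The results here are those in which the effect of replicate 3 differed between the arms, or the KCC-07 effect differed between replicate 3 and the earlier replicates, by a test of the difference itself (edgeR). The first held for 2358 genes and the second for 1898.

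Between the arms (drug minus siRNA, log2), Fos differed by 2.87, Neurl1b by 2.38, Spry4 by 2.08, Egr1 by 1.444 and mt-Co1 by 0.75. The call of mt-Co1 was lost without scramble replicate 3 (adjusted p = 0.104) or siMBD2 replicate 3 (0.125). Stc1 and Ugt1a6a differed by 1.93 each, calls that were lost without 6 and 8 of the 12 libraries in turn (highest adjusted p 0.151 and 0.204, both without scramble replicate 3). Lower in the drug arm were the NF-kB and stress genes Cxcl1 (−0.55), Nfkbia (−1.78), Fas (−1.86), Tnfaip3 (−2.04), Cxcl2 (−2.47), Herpud1 (−2.48) and Cfb (−4.94), and the sterol gene Insig1 (−1.59). So were Id3, an inhibitor of basic helix-loop-helix factors (−2.10), and the interferon genes Isg15 (−2.79), Ifit1 (−3.50), Ifit3b (−4.84) and Cxcl10 (−4.94). Ccl5 (−2.52) lost its call without scramble replicate 3 (0.0557) or siMBD2 replicate 3 (0.0605). Cfb has a near-identical copy, Gm20547, and its value is uncertain.

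Gbp5, a guanylate-binding protein gene, had a fitted difference of −6.08 that rests in part on 0 counts in control replicate 3. Set at 3 counts, that library is at least 42.5-fold lower than the mean of control replicates 1 and 2. Gbp5 had 117, 119 and 0 counts in control and 367, 250 and 15 with KCC-07. With scramble it had 21, 6 and 20 counts and with siMBD2 14, 25 and 62. The pseudogene Rps12l1 (chr7:56014016-56014414) had a fitted difference of −10.79. It had 131, 173 and 0 counts in control, 180, 188 and 0 with KCC-07, 176, 111 and 123 with scramble and 49, 50 and 110 with siMBD2, so it was at least 55.2-fold (control) and 55.8-fold (KCC-07) lower in replicate 3 of the drug arm, against 3 counts per library. It has near-identical copies, among them Rps12, and its value is uncertain.

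For the KCC-07 effect (replicate 3 minus the earlier replicates, log2), the higher values were Lcp1 3.64, Tslp 3.61, Il18rap 3.60, Chac1 3.50, Cldn4 3.15, Slc7a11 2.18, Asns 1.75, Fth1 1.32, Trib3 1.22, Hmox1 0.98 and Atf4 0.86. The lower values were Erg −5.10, Tnfaip8l3 −4.41, Krt5 −4.03, Krt42 −3.08, Nat8f3 −2.86 and Smad7 −1.10. Nat8f3 has near-identical copies, Nat8f6 and Nat8f7, and its value is uncertain. Tnfaip8l3 and Krt5 lost their calls without 5 and 4 libraries in turn (highest adjusted p 0.0852 without KCC-07 replicate 1 and 0.0643 without siMBD2 replicate 1), and Nat8f3 without KCC-07 replicate 2 (0.0535).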

How the results depend on the processing

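Over 244 pairs of a named gene and a comparison, 4456 of 5123 alternatives kept direction and call, 647 lost the call, 19 gained one and 1 changed sign (Egr1 in the siRNA arm, not called at −0.09 there, between −0.20 and 0.011 without 1 library). Of 237 called pairs, 164 kept the call without each library in turn and 84 under every alternative run. The replicate 3 count of 1795 was 2848 by DESeq2, 1059 and 993 without the scramble and siMBD2 groups, 660 without the KCC-07 group, 14 in control and scramble libraries only, 5454 with group effects averaged, 403 at an adjusted p under 0.01 and 298 at 2-fold, and 956 to 1939 without 1 library. The drug arm's 5305 was 2194 in its own libraries, 2843 at 0.01, 878 at 2-fold and 4227 to 5693 without 1 library. The siRNA arm's 601 was 4157 in its own libraries, 1313 without a filter, 1033 by DESeq2, 245 at 0.01, 176 at 2-fold and 85 to 1709 without 1 library. The arm difference of 2358 was 773 at 0.01, 562 at 2-fold and 488 to 3868 without 1 library. The KCC-07 difference of 1898 was 126 in the drug arm alone and 983 to 4087 without 1 library. The siMBD2 difference of 0 was 2 by DESeq2, 60 in the siRNA arm alone and 0 to 4 without 1 library. Replicate 3 against 1, against 2 and 2 against 1 gave 64 to 657, 41 to 411 and 0 to 1 without 1 library. With the replicate block the counts were 1310, 4476, 413 and, for the arm difference, 1536. The higher mitochondrial share of replicate 3 (by 1.22 percentage points) lost its call when the replicate number was moved as a unit. The causes of these shifts were not tested. Genes under about 10 counts a library were mostly not tested.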

Other observations

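Several lists are not described above, and their counts over the 4 groups stand beside 6.41% of all genes higher and 5.60% lower. Of 23 MYC targets and ribosome biogenesis genes 0 rose and 5 fell (3 to 10 without 1 library), and of 8 glucocorticoid targets 2 rose and 2 fell (1 rose without control or KCC-07 replicate 3). Of 8 metallothionein and metal genes 2 rose, but 0 did without any 1 of 8 libraries and 1 without siMBD2 replicate 3. Of 18 hypoxia targets 3 rose, Vegfa and the glucose transporter Slc2a1 among them, and of 16 glycolytic enzymes 2 rose (1 without any 1 of 9 libraries). Of 24 lysosomal and autophagy genes 4 rose and 1 fell, with Neu1, a lysosomal sialidase, at a log2 change of 0.79, and the count of 4 was 2 without KCC-07 replicate 1, KCC-07 replicate 3 or siMBD2 replicate 1 and 7 without control replicate 3. Of 18 circadian clock genes and of 16 cytosolic heat shock genes 0 rose and 1 fell (edgeR; 0 to 1 and 0 to 2 fell without 1 library).

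The epithelial state genes moved in both directions. Of 22 luminal genes 4 rose and 3 fell over the 4 groups (2 and 2 without KCC-07 replicate 3): the claudin gene Cldn7 had a log2 change of 1.02 and Cldn3 one of 0.70, while Elf3, an epithelial transcription factor that cytokines induce, had one of −1.14 (edgeR). None of 12 basal genes passed (0 by edgeR). Id1, a target of bone morphogenetic protein signalling, was at 77.8, 76.7 and 202 CPM with scramble and 93.1, 93.0 and 241 CPM with siMBD2, beside 49.2, 50.9 and 66.8 CPM in control and 39.6, 43.5 and 40.8 CPM with KCC-07. Id3 was at 80.8, 84.6 and 163 CPM with scramble and at 49.2, 36.3 and 25.8 CPM in control. Both Id genes were higher in replicate 3 of the siRNA arm than in its earlier libraries.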
